A study of Homo sapiens with 4 samples.

Results

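The 5 G1 cyclins, 4 CDK inhibitors and MDM2 were followed in 2 hepatocellular carcinoma (HCC) lines, Huh7 and PLC, kept for 48 h in medium with glucose at 5 mM (low) or 25 mM (high). These 10 genes were chosen by name and matched by symbol among the 59652 genes of the count table. For every combination of line and glucose, 1 library of rRNA-depleted total RNA was sequenced, so none of the 4 conditions has a replicate. Both lines are labelled wild type, and all cultures were fed glucose-free DMEM with fetal bovine serum to which glucose was added. The study used this screen to look for glucose-related transcripts in HCC. A comparison of 5 with 25 mM therefore rests on a pair of libraries in each line, and the lines are single established cell lines and not replicate cultures of a condition.

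Cyclins are the regulatory partners of cyclin-dependent kinases (CDKs). In G1, D-type cyclins join CDK4 and CDK6 and start the phosphorylation of RB, which releases E2F factors, and E-type cyclins then join CDK2 and carry the cell into S phase. CDKN2A and CDKN2B make INK4 proteins that block CDK4 and CDK6, whereas CDKN1A (p21) and CDKN1B (p27) act mainly on CDK2 complexes. MDM2 is a ubiquitin ligase that marks regulators of growth arrest for degradation.

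Of the 10 genes, 7 have promoter windows in the RefSeq table used here (GRCh38.p14, 250 bases before to 50 bases after a start). The windows of CCNE1 and CDKN1A are shown because these genes lay on opposite sides of each other in the glucose comparison, CCNE1 higher and CDKN1A lower at 25 mM in both lines. Capitals mark matches to the GC box GGGCGG on either strand, and neighbouring matches may overlap. The CCNE1 window lies at chr19:29811741-29812040 on the plus strand and the CDKN1A window at chr6:36678464-36678763 on the plus strand.
CCNE1: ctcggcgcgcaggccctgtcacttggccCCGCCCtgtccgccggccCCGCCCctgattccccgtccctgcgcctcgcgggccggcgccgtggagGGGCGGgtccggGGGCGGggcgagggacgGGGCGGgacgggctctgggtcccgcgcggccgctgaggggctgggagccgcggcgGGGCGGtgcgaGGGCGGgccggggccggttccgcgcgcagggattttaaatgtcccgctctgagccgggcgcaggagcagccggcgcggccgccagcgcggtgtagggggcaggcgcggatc
CDKN1A: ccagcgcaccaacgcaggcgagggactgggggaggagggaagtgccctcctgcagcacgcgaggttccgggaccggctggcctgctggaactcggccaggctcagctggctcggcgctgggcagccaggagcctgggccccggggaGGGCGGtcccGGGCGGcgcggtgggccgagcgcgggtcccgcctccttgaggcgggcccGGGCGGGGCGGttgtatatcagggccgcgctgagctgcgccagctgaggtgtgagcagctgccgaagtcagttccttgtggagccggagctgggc
The CCNE1 window held 7 matches and the CDKN1A window 4, and 45.0% of the 35116 promoter windows held at least 1. The E2F letters TTTCCCGC, TTTCGCGC, TTTGCCGC and TTTGGCGC, searched on both strands, matched neither window, and 3.32% of all windows held a match. Among the other members they matched only the MDM2 windows at the upstream start. These matches describe the letters only, and binding was not tested.

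Reads counted on genes came to between 16049686 (PLC cells, 25 mM) and 30279716 (PLC cells, 5 mM), and a floor of 3 reads stood for 0.0991 to 0.187 CPM (the count scaled to the library total). The 8 hepatocyte and liver tumour markers summed to between 4775 and 4910 FPKM for Huh7 and between 646 and 1419 FPKM for PLC, with 1 marker at 0 for PLC at 25 mM. Of 7 leukocyte, endothelial and fibroblast markers, 1 passed 0.5 FPKM for Huh7 (PECAM1, 2.37 and 2.55 FPKM) and 0 for PLC, and CD3E had 0 reads in every library. The liver marker APOA1 passed the glucose thresholds described below in both lines (1.52 and 3.46 with 0.1 added). FPKM is the count divided by gene length and library total.

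CCND1 (cyclin D1), the D-type cyclin most often raised in liver cancer, had the highest level of the 10 genes in every library. It was at 61.4 FPKM (6247 reads) for Huh7 at 5 mM, 49.99 FPKM (7160 reads) for Huh7 at 25 mM, 44.2 FPKM (6368 reads) for PLC at 5 mM and 50.7 FPKM (3872 reads) for PLC at 25 mM. CDKN1B ranked next, between 16.9 and 22.4 FPKM, and MDM2 followed it, between 10.9 and 14.7 FPKM. By FPKM the order of these 3 genes was the same in all 4 libraries, and their exact Poisson 95% intervals did not overlap within a library. The order of CDKN1B and MDM2 rests on the deposited exon length of MDM2 (13448 bases against 2565 for CDKN1B). It turned with reads alone and with reads per longest coding sequence (1566 and 615 bases), alternatives chosen after seeing the data, under which MDM2 lay above CDKN1B in all 4 libraries and CCND1 stayed first. All intervals given here cover counting error only.

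Below them the order changed with line and glucose. In Huh7 cells at 5 mM CDKN2B (13.4 FPKM, 1142 reads) lay above CDKN2A (7.10 FPKM, 657 reads) and CCNE1 (5.48 FPKM, 288 reads), whereas at 25 mM CDKN2A (8.98 FPKM, 1169 reads), CCNE1 (7.73 FPKM, 572 reads) and CDKN2B (7.65 FPKM, 921 reads) lay close together. The intervals of CCNE1 and CDKN2B overlapped there. In PLC cells at 5 mM CCND3 (3.50 FPKM), CDKN2B (2.94 FPKM) and CDKN1A (2.82 FPKM) followed CDKN2A (4.87 FPKM), and neighbours among these 3 had overlapping intervals. The CDKN2A count joins 2 proteins, the INK4 inhibitor p16 and ARF, an MDM2 antagonist read in another frame, and gene counts do not separate them.

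Among the D-type cyclins CCND1 supplied 98.1% of the summed FPKM for Huh7 at 5 mM (95% interval 97.8 to 98.4), 95.6% at 25 mM (95.1 to 96.0), and 91.5% (90.9 to 92.1) and 91.9% (91.1 to 92.6) for PLC. CCNE1 supplied 81.5% and 77.1% of the summed E cyclin FPKM for Huh7 at 5 and 25 mM, and 77.7% and 69.0% for PLC. By reads without length its share was lower, between 55.5% and 71.1%, and it stayed the larger of the pair. CDKN1A was the smaller part of the CDKN1A and CDKN1B sum, at 14.0% and 8.24% for Huh7 and 12.9% and 7.39% for PLC.

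The first comparison asks which of these genes differed between 25 and 5 mM glucose. CCNE2 (cyclin E2) passed the ratio thresholds upward in both lines, and CCNE1 (cyclin E1) was higher at 25 mM in both but passed them for PLC alone. CDKN1A was lower at 25 mM in both lines and passed the thresholds for PLC, and for Huh7 only with the plain ratio or another scaling. MDM2, by contrast, was at nearly the same level at both concentrations. The limits came from the study's screen: a gene counted above 0.5 FPKM, and as past the thresholds when its 25 mM to 5 mM ratio exceeded 1.5 or fell short of 0.67. The constant of 0.1 added to both FPKM values before the ratio was judged, and the need for only 1 library of the line over 0.5 FPKM, were set here and are not the study's, and the members' ratios printed here are without that constant.

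In Huh7 cells 3 of the 9 members over 0.5 FPKM passed, with CCND3 and CCNE2 higher and CDKN2B lower at 25 mM. Over all genes 27.8% passed (14.1% higher and 13.7% lower), so the members' share was near this background. In PLC cells 4 of 10 passed, with CCNE1 and CCNE2 higher and CCND2 and CDKN1A lower, beside 43.3% of all genes (26.2% higher and 17.0% lower). CCNE2 was the 1 member of 9 past the thresholds in Huh7 and PLC alike with a single direction, against 9.12% of all genes. With the plain ratio there were 2 (CCNE2 upward and CDKN1A downward), beside 10.1% of all genes, and with a constant of 1 there were 0, beside 4.18%, since CCNE2 was then at 1.47 for Huh7. The median log2 ratio was 0.27 over the 9 members for Huh7 and 0.17 over the 10 for PLC, and 0.04 and 0.11 over all genes past 0.5 FPKM.

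CCNE2 had 117 reads at 5 mM and 303 at 25 mM for Huh7 (1.25 and 2.29 FPKM), and 72 and 157 reads for PLC (0.541 and 2.23 FPKM). Both 25 mM libraries lay above both 5 mM libraries. The ratio was 1.84 (95% interval 1.48 to 2.30) for Huh7 and 4.11 (3.09 to 5.52) for PLC. In bulk RNA, more cells in late G1 and S phase and more CCNE2 RNA per such cell cannot be told apart. CCNE2 spans 94879770 to 94896678 of chromosome 8 (GRCh38, minus strand), where 1629 of its 4397 exon bases are shared in position with INTS8 on the opposite strand, which had 1011 and 1651 reads for Huh7 and 1864 and 1758 for PLC. Library totals were 21376239 and 30085303 reads for Huh7 and 30279716 and 16049686 for PLC. Relative to these totals INTS8, like CCNE2, was higher at 25 mM in both lines. The use of strand in the counting is not given in the sources used here, so CCNE2 counts are uncertain by whatever INTS8 adds or takes away.

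CCNE1, the other activator of CDK2, had 288 and 572 reads for Huh7 (5.48 and 7.73 FPKM) and 140 and 196 reads for PLC (1.88 and 4.96 FPKM). The 25 mM library lay above the 5 mM library within each line, but PLC cells at 25 mM stayed below Huh7 cells at 5 mM, so the glucose groups overlapped across lines. The ratio was 1.41 (1.22 to 1.63) for Huh7 and 2.64 (2.12 to 3.31) for PLC. CCNE1 lies on chromosome 19 from 29811991 to 29824312, on the plus strand, and its exons overlap no other gene of the table.

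CDKN1A, on chromosome 6 from 36676460 to 36687337, stood on the other side. Its reads were 193 and 181 for Huh7 (3.01 and 2.01 FPKM) and 256 and 65 for PLC (2.82 and 1.35 FPKM). Both 25 mM libraries lay below both 5 mM libraries. The ratio was 0.666 (0.541 to 0.820) for Huh7 and 0.479 (0.359 to 0.631) for PLC, and with 0.1 added the Huh7 ratio was 0.677, just outside the threshold. The plain ratio of 0.666 passed, as did the ratio with 0.1 added under TMM (0.660), a scaling described below with CCND1. Either made 4 of 9 members for Huh7.

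The glucose effect common to Huh7 and PLC was tested by edgeR's quasi-likelihood method on all counted genes, with cell line as a block and 1 residual degree of freedom. Of the 9 members tested, 0 had an adjusted p-value under 0.05, beside 0.379% of the 23217 genes tested. At an unadjusted p-value under 0.05 there were 3 of 9 by edgeR and by limma and 1 (CCNE2) by DESeq2, beside 8.51% of all genes by edgeR, and DESeq2 and limma also gave 0 after adjustment. For CCNE2 edgeR gave a log2 fold change (log2FC) of 1.36 with a standard error (SE) of 0.38 (adjusted p = 0.179, unadjusted p = 0.00338). CCNE1 had 0.86 (SE 0.33, adjusted p = 0.441) and CDKN1A had -0.89 (SE 0.35, adjusted p = 0.456) in the same edgeR fit.

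CCND2 (cyclin D2), on chromosome 12 from 4269771 to 4305353, was read almost entirely from 1 library. It had 142 reads (0.587 FPKM) for PLC at 5 mM, 1 read for PLC at 25 mM and 0 reads in both Huh7 libraries. The 25 mM to 5 mM ratio for PLC was 0.0133 (0.000334 to 0.0752), from the 1 read at 25 mM. At 5 mM CCND2 was 33.4-fold higher in PLC than in Huh7 cells when the Huh7 count of 0 was set to 3 reads. The exact 95% interval, from the 0 reads there, had a lower limit of 26.8-fold. The low-count filter removed CCND2 from the test. With no filter, edgeR gave log2FC -6.04 (SE 1.14, adjusted p = 4.09e-05), a value that rests on 1 library, and CCNE2 then had an adjusted p of 0.0318. Among all genes, 2, namely CCND2 and AC099489.3, had at least 100 reads in 1 library and at most 3 in each of the others, and for both this was PLC cells at 5 mM. At 20 reads or more, 69 genes were seen in that library alone, against 3, 21 and 5 for Huh7 at 5 mM, Huh7 cells at 25 mM and PLC cells at 25 mM. These cutoffs are in reads and not scaled to depth. PLC cells at 5 mM had the deepest library (30279716 reads) and PLC cells at 25 mM the shallowest (16049686). The cutoff of 20 reads was chosen after the values were seen. Whether the PLC library at 5 mM differs for a reason other than glucose was not tested.

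CCND3 (cyclin D3), on chromosome 6 from 41934934 to 42050357, had 147 and 403 reads for Huh7 (1.19 and 2.33 FPKM) and 611 and 414 reads for PLC (3.50 and 4.48 FPKM). Every PLC library lay above every Huh7 library. Its glucose ratio was 1.95 (1.61 to 2.37) for Huh7 and 1.28 (1.13 to 1.45) for PLC. The difference of the lines in this ratio was 0.656-fold, PLC over Huh7, with a counting interval of 0.520 to 0.828 and no test against culture spread.

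CCND1, on chromosome 11 from 69641156 to 69654474, had a ratio of 0.814 (0.787 to 0.843) for Huh7 and 1.15 (1.10 to 1.19) for PLC, neither past the thresholds. With libraries scaled by TMM in place of totals, which shifts every log2 ratio by -0.04 for Huh7 and -0.12 for PLC, these were 0.793 (0.766 to 0.820) and 1.06 (1.01 to 1.10). CDKN1B, on chromosome 12 from 12715058 to 12722369, had 1013 and 1725 reads for Huh7 and 1486 and 697 for PLC. Its ratio was 1.21 (1.12 to 1.31) for Huh7 and 0.885 (0.808 to 0.969) for PLC. For the edgeR test of a shared change the adjusted p-values of CCND1 and CDKN1B were 0.968 and 0.998, in a fit where opposite directions cancel. Of the 4761 exon bases of CCND1, 497 are shared in position with LTO1 on the opposite strand, which had between 377 and 860 reads.

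CDKN2A and CDKN2B lie side by side on chromosome 9, from 21967753 to 21995301 and from 22002903 to 22009305 on the minus strand. CDKN2A had a ratio of 1.26 (1.15 to 1.39) for Huh7 and 1.40 (1.24 to 1.58) for PLC, under the threshold in both. CDKN2B had 1142 and 921 reads for Huh7, a ratio of 0.573 (0.525 to 0.626), and 356 and 208 reads for PLC, a ratio of 1.10 (0.925 to 1.31). The neighbours thus stood on opposite sides of 1 for Huh7. The antisense lncRNA CDKN2B-AS1, which shares 668 exon bases in position with CDKN2A and 0 with CDKN2B, had 625 and 679 reads for Huh7 and 560 and 384 for PLC. Scaled to library totals, with 0.1 added to FPKM, its ratios were 0.787 for Huh7 and 1.26 for PLC. MTAP, the neighbouring methylthioadenosine phosphorylase gene that is often lost together with this pair, had reads in all libraries and ratios, with 0.1 added, of 1.01 and 1.13. DMRTA1, a further gene of this region, had 0.759 and 0.860.

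MDM2, on chromosome 12 from 68808177 to 68850686, had 4213 and 5753 reads for Huh7 (14.7 and 14.2 FPKM) and 4517 and 2345 reads for PLC (11.1 and 10.9 FPKM). Its ratio was 0.970 (0.932 to 1.01) for Huh7 and 0.979 (0.931 to 1.03) for PLC. By TMM the values were 0.944 (0.907 to 0.983) and 0.901 (0.857 to 0.947), with both intervals below 1. The edgeR log2FC was -0.12 (SE 0.21, adjusted p = 0.971).

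The second comparison asks how the lines differ. Of the 9 members tested, 3 had an adjusted p-value under 0.05 for PLC against Huh7 cells in the same edgeR fit, beside 42.9% of all genes tested, so the members' share was not above the background. CDKN2B was lower for PLC, with log2FC -1.71 (SE 0.30, adjusted p = 0.000450 by edgeR). CCND3 was higher for PLC, at 1.25 (SE 0.31, adjusted p = 0.00518 by edgeR). CCNE1 was lower for PLC, at -1.08 (SE 0.33, adjusted p = 0.0177 by edgeR), a call that DESeq2 did not make (adjusted p = 0.0856) and that was lost without glucose as a block (edgeR adjusted p = 0.137).

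CDKN2B was at 13.4 and 7.65 FPKM for Huh7 and 2.94 and 3.24 FPKM for PLC, and the lines did not overlap. The PLC to Huh7 ratio was 0.220 (0.195 to 0.248) at 5 mM and 0.423 (0.362 to 0.493) at 25 mM. For CCND3 it was 2.93 (2.45 to 3.54) and 1.93 (1.68 to 2.21). For both genes the gap between the lines was smaller in high glucose. For CCNE1 the ratio was 0.343 (0.278 to 0.421) at 5 mM and 0.642 (0.543 to 0.757) at 25 mM. MTAP and DMRTA1, near CDKN2B on chromosome 9, were also lower for PLC by edgeR. Their log2FC values were -1.525 (adjusted p = 0.000177) and -2.82 (adjusted p = 9.32e-06). CDKN2A (-0.46, adjusted p = 0.164) and CDKN2B-AS1 (-0.28, adjusted p = 0.453) did not pass in the same edgeR fit.

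CCNE2 was lower for PLC at 5 mM, with a ratio of 0.434 (0.319 to 0.588), and had a ratio of 0.971 (0.796 to 1.18) at 25 mM. CCND1 went the same way, from 0.720 (0.695 to 0.745) to 1.01 (0.975 to 1.05). MDM2 kept the same ratio at both concentrations, 0.757 (0.726 to 0.790) and 0.764 (0.728 to 0.802). Its edgeR log2FC between lines was -0.39 (SE 0.21, adjusted p = 0.151), which did not pass.

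The genes around the members were read from lists of the pathway, and their ratios are given with 0.1 added to FPKM. Of the partners of D cyclins, CDK4 had ratios of 0.789 and 1.01 in Huh7 and PLC cells, and CDK6 had 1.19 and 0.690. Between lines by edgeR, CDK6 was higher for PLC (log2FC 1.61, adjusted p = 0.000148), and CDK4 did not pass (-0.21, adjusted p = 0.487). CDK2, the partner of E cyclins, passed the thresholds upward in both lines (1.85 and 1.81), as did CDC25A (1.74 and 2.46), the phosphatase that activates it. These were 2 of 7 kinases and activators, beside the 9.12% of all genes that passed in both lines, and edgeR's adjusted p-value for a shared change was under 0.05 for 0 of the 7, with 2 unadjusted.

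RB1 itself had ratios of 1.08 and 0.877. Of 10 pocket proteins and E2F or DP factors, E2F2 (2.20 and 3.53) and TFDP2 (1.54 and 3.10) passed upward in both lines, and E2F1 had 1.26 and 2.89. The 2 of 10 past the thresholds in both lines stand beside 9.12% of all genes. In Huh7 cells 2 of the 10 passed upward, beside 14.1% of all genes, and in PLC cells 5, beside 26.2%. In each line 0 passed downward. By edgeR 0 of 10 had an adjusted p-value under 0.05, with 4 unadjusted, beside 8.51% of all genes. Further INK4 inhibitors stood on the same side, with CDKN2C (p18) at 1.64 and 5.71 and CDKN2D (p19) at 1.88 and 3.60. These were 2 of 3 further CDK inhibitors, beside the 9.12% of all genes past the thresholds in both lines. CDKN2D had only 20 and 57 reads for Huh7 and 47 and 96 for PLC. In edgeR's test of a shared change the adjusted p-values of CDKN2C and CDKN2D were 0.140 and 0.308. SKP2, which targets p27 for degradation, had ratios of 1.25 and 1.86, and RBX1 had 1.16 and 1.501, the latter close to the threshold. Of 7 ligase parts 0 passed for Huh7 and 2 for PLC, beside 27.8% and 43.3% of all genes in either direction.

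Of 16 S phase genes under E2F control, 8 passed upward for Huh7 and 16 for PLC, beside 14.1% and 26.2% of all genes, and 0 passed downward. The median log2 ratio of this list was 0.59 and 1.48, beside 0.04 and 0.11 over all genes. Examples are RRM2, a subunit of ribonucleotide reductase, with ratios of 1.73 and 6.19, and PCNA, the sliding clamp of DNA polymerase, with 1.58 and 3.97. The helicase subunits MCM4, MCM5 and MCM6 had 1.76, 1.58 and 1.53 in Huh7 and 3.47, 4.02 and 2.70 in PLC. The origin protein ORC1 had 1.84 and 3.17, and the nucleotide enzymes TK1 and TYMS had 1.58 and 1.57 in Huh7 and 2.83 and 2.41 in PLC. In edgeR's test of a shared change, the adjusted p-value was under 0.05 for 0 of the 16, and the unadjusted p-value for all 16, beside 8.51% of all genes. The E cyclins lay among these genes on the plot of both lines' ratios.

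**Figure D1:**
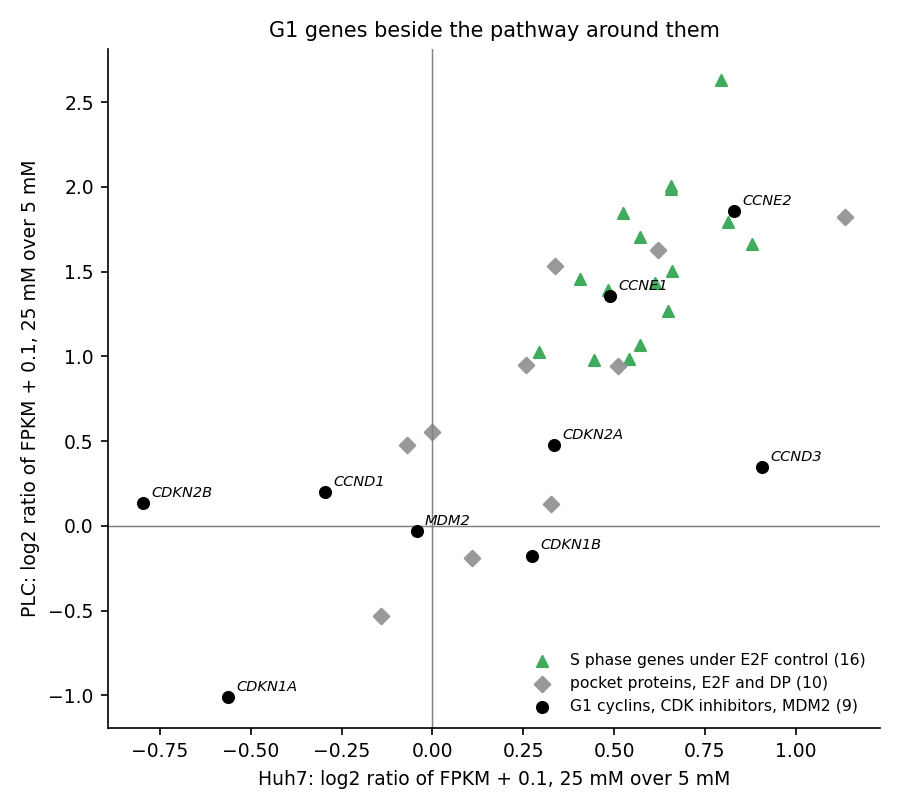
Each point is a gene with its log2 ratio of FPKM + 0.1 at 25 mM over 5 mM for Huh7 (horizontal) and PLC cells (vertical), for genes over 0.5 FPKM in at least 1 library of each line. The 16 S phase genes lie above 0 in both lines with CCNE1 and CCNE2 among them, while CDKN1A lies below 0 in both lines and MDM2 near 0.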

How the data were processed

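The authors deposited a table of read counts per gene, whole numbers without normalization. The submitters' processing notes name HISAT2, featureCounts and hg38. The strand setting and annotation release are not given in the sources used here. Exon positions of the members were compared with GENCODE release 44 on GRCh38. Of 59657 lines, 5 belong to a broken entry and were left out. The deposited gene length, in bases, was used for FPKM.

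Ratios compare single libraries. Their 95% intervals are exact (Clopper-Pearson, scipy 1.17.1) and cover counting error only. edgeR 4.0.16 (filterByExpr, TMM, quasi-likelihood, Benjamini-Hochberg over all genes) was fitted with terms for line and glucose. Lines are not replicate cultures, so p-values measure only the spread between these libraries. DESeq2 1.42.0 and limma 3.58.1 (limma-trend), other scalings, constants and filters were alternatives. Scripts were tested on simulated data. Members and lists were chosen with earlier results of these data known. The text names all members and, from each list, genes past the thresholds in both lines or past the edgeR test, otherwise the 2 with the largest mean log2 ratio, and a few named throughout. Some genes of the lists are not reported here.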

Additional observations from a re-analysis of the deposited data

Results flagged for a closer look

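CCND1 and CDKN1B had ratios on opposite sides of 1 in the lines, with counting intervals that left out 1. With 0.1 added to FPKM, CCND1 had 0.815 for Huh7 and 1.15 for PLC, and CDKN1B had 1.21 and 0.886. The ratio of the PLC to the Huh7 value was 1.41 (counting interval 1.34 to 1.49) for CCND1 and 0.731 (0.648 to 0.825) for CDKN1B. Neither gene passed the ratio thresholds in either line. No test of this difference was made, because 1 library per condition leaves no spread to test it against.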

How the results depend on the processing

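The libraries pair by cell line, with 1 at 5 mM and 1 at 25 mM in each, and with 1 library per condition no replicate could be left out. The edgeR fit took this pairing in through cell line as a block. Without the block 0 of 9 members, in place of 3, had an unadjusted p under 0.05 for glucose by edgeR. With ratios over 2 or under 0.5, 0 members passed in Huh7 cells (CCND3, CCNE2 and CDKN2B were lost). With no filter on low counts, 2 of 10 members (CCNE2 and CCND2) had an adjusted p under 0.05 for glucose by edgeR. The CCND2 value rests on PLC cells at 5 mM alone and is not a change shared by the lines. The matching percentage over all genes is not given here. Shares moved with the length used. By reads alone (CPM) CCND1 held 97.7%, 94.7%, 89.4% and 90.3% of D cyclins in Huh7 cells at 5 and 25 mM and PLC cells at 5 and 25 mM, and by longest coding sequence 97.7%, 94.6%, 89.4% and 90.2%. For CCNE1 these were 71.1%, 65.4%, 66.0% and 55.5%, and 70.8%, 65.0%, 65.7% and 55.2%. For CDKN1A they were 9.50% in Huh7 cells at 25 mM and 14.7% in PLC cells at 5 mM by reads, and 19.2%, 11.6%, 17.7% and 10.4% by coding sequence. The other 31 counts and shares stayed within 1.5 times the count or the counting interval. Of the values for single members, 0 called ones changed sign. The CCNE1 call between lines was lost by DESeq2 and without the glucose block. The count of members past the thresholds in both lines, recomputed after seeing the data, was 2 with no constant and by TMM or DESeq2 scaling, and 0 with a constant of 1 and at the ratio limits of 2 and 0.5. Among threshold calls, CCNE2 in Huh7 was lost with a constant of 1, CCND2 in PLC with FPKM over 1 or over 0.5 in both libraries, and CDKN1A in Huh7 was gained with no constant and under TMM or DESeq2 scaling. Depth limits CCND2, where 3 reads in a Huh7 library stand for 0.0125 to 0.0176 FPKM.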

Other observations

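Of 14 regulators of transcription known to act on CCND1, CDKN1A or CDKN2B, 4 passed the thresholds downward in both lines at 25 mM and 0 upward. Over all genes, 9.12% passed in both lines in either direction. By line, 4 were lower and 0 higher for Huh7, beside 13.7% and 14.1% of all genes. For PLC 6 were lower and 1 higher, beside 17.0% and 26.2% of all genes. The 1 higher was FOS, an AP-1 partner of JUN, with ratios of 1.19 and 2.22 and 44 and 58 reads in PLC, named after its values were seen. KLF4 had 461 and 156 reads for Huh7 and 238 and 22 for PLC, with ratios, 0.1 added to FPKM, of 0.253 and 0.211. JUN, an AP-1 subunit, had ratios of 0.472 and 0.279, MYC had 0.633 and 0.546, and FOXO1 had 0.578 and 0.539. In edgeR's test of a shared change KLF4 (log2 fold change -2.33, adjusted p = 0.0155) and JUN (-1.55, adjusted p = 0.0244) passed, while MYC (-0.85, adjusted p = 0.144) and FOXO1 (-0.94, adjusted p = 0.178) did not. Beside these, the members CDKN1A and CCND1 had adjusted p-values of 0.456 and 0.968 in the same edgeR fit. The list's median log2 ratios were -0.05 (Huh7) and -0.23 (PLC).

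CDKN1C (p57), a further CDK inhibitor from an imprinted region, was nearly confined to Huh7 cells, with 59 and 108 reads there and 4 and 0 for PLC. By edgeR it was lower for PLC, with log2FC -5.16 (SE 0.80, adjusted p = 0.000179).

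Likeness of pattern was measured as Euclidean distance over the 4 libraries in log2(FPKM + 0.1), centred on the mean, among 17629 named genes. The nearest to CCND1 were FRY, IMMP2L and RALGPS1 (0.0279 to 0.0482), to MDM2 SMIM15, UBE3A and TPP2 (0.0308 to 0.0367), and to CDKN1A MIR4786, MSANTD1 and RPS4XP17 (0.0987 to 0.121). With 4 points, close matches are easily found among so many genes.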
